A study of Mus musculus with 2 samples.

Results

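Mir7-1, Mir7-2, Mir7b and Mir671 are the mouse genes of the microRNAs miR-7 and miR-671, which pair with the circular RNA Cdr1as. The genes were chosen by these symbols in release M21 of the GENCODE annotation, where they make up 4 of the 2202 microRNA genes listed in the data. MicroRNA-seq, the sequencing of short RNA, had been applied to total RNA of left cerebral cortex, taken from female mice 10 days old. The mice were B6CASTF1/J, F1 offspring of C57BL/6J, an inbred laboratory strain, and CAST/EiJ, an inbred strain derived from wild mice, and no treatment or engineered allele is named. There was 1 group of 2 animals with 1 library each, called animal 1 and animal 2 after the biological replicate numbers, and both are linked to 1 donor record. Nothing in the design sets conditions against each other, so levels and the difference between these libraries are described.

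MicroRNAs are cut from hairpin transcripts and guide Argonaute proteins to matching RNAs, chiefly through the seed at bases 2 to 8 of the mature strand. Cdr1as is a circular RNA of neurons with many sites for miR-7 and a nearly complete site for miR-671, which directs its slicing. Cyrano, a long noncoding RNA, carries an extensively paired site for miR-7 and directs the degradation of that microRNA in mouse brain. Neither RNA was measured in these libraries, which hold short RNA only, so for both RNAs the reference sequence alone is described.

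The mature strands below show what sets the family apart, the seed, and how little divides its members. They were taken from RefSeq (GRCm38.p6), where all 4 genes were matched, and are written 5′ to 3′ with the seed in capitals.
mmu-miR-7a-5p: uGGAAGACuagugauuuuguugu
mmu-miR-7b-5p: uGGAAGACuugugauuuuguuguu
mmu-miR-671-5p: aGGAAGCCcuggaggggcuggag
mmu-miR-671-3p: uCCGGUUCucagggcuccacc
Mir7-1 and Mir7-2 both give mmu-miR-7a-5p, letter for letter. Counted from the 5′ end, mmu-miR-7b-5p differs from it over their 23 shared positions by the single substitution A10U, outside the seed, and is 1 base longer. Among 1738 mature microRNAs in the RefSeq table, the seed GGAAGAC occurred in the products of Mir7-1, Mir7-2 and Mir7b and of no other gene. The seed of mmu-miR-671-5p differs from it by A7C. No other gene shared either seed of Mir671.

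The 3′ arms of the Mir7 hairpins differ more, and, unlike the 5′ arms, separate Mir7-1 from Mir7-2.
mmu-miR-7a-1-3p: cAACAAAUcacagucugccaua
mmu-miR-7a-2-3p: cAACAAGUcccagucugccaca
mmu-miR-7b-3p: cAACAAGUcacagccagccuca
The arms of Mir7-1 and Mir7-2 differ by A7G, A10C and U21C, the first of which lies in the seed. Those of Mir7-2 and Mir7b keep the same seed and differ by C10A, U14C, U16A and A20U.

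The whole hairpins show where a short read can be placed in the reference. Capitals mark the longest run of bases common to Mir7-1 and Mir7-2.
Mir7-1: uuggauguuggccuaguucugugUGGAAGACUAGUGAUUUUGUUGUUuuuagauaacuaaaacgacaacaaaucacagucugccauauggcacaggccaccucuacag
Mir7-2: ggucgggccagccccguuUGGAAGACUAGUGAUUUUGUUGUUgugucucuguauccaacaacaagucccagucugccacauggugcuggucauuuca
The run is 24 bases long and holds the whole mature mmu-miR-7a-5p and 1 base after it. A read of that strand alone therefore matches both genes equally. Over their full length the hairpins of Mir7-1 and Mir7-2 were 68.8% identical, those of Mir7-1 and Mir7b 66.9%, and those of Mir7-2 and Mir7b 64.3%, with a longest common run of 14 bases for either pair with Mir7b. Mir671 shared at most 8 bases in a row with any of them.

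The genes lie on 4 chromosomes, with no listed microRNA gene within 10 kb of any of them (mm10 coordinates, GENCODE M21). Mir671 (ENSMUSG00000076387.1, chr5:24592114-24592211, plus strand, 98 bases) lies within coding exon 4 of Chpf2, a gene of chondroitin sulfate synthesis, on the same strand in both overlapping transcripts. It is also opposite an exon of 1 transcript of Smarcd3, which encodes a chromatin remodelling subunit. Mir7-1 (ENSMUSG00000065434.1, chr13:58392779-58392886, minus strand, 108 bases) lies in an intron of Hnrnpk, the gene of an RNA-binding protein, on the same strand and outside the exons of all 12 overlapping transcripts. Mir7-2 (ENSMUSG00000065609.1, chr7:78888277-78888373, plus strand, 97 bases) is intergenic, 7481 bases from Aen. Mir7b (ENSMUSG00000065491.1, chr17:56242988-56243098, plus strand, 111 bases) is annotated between genes, 183 bases from the lincRNA AC026385.1 and 3627 bases from the pseudogene AC026385.2.

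Reads counted to a listed gene numbered 3806078 in animal 1 (33.5% of all reads) and 2602935 in animal 2 (30.4%). Levels are given in CPM, the reads of a gene scaled by all counted reads of its library. Reads mapped to several positions, in a row of their own, were 42.7% of all reads in animal 1 and 40.4% in animal 2. Of the 2202 genes, 724 had a read in animal 1 and 668 in animal 2, and 307 reached 10 CPM in both. The 10 neuronal marker genes all had reads in both libraries and summed to 36856 CPM in animal 1 and 38268 CPM in animal 2. Most of each sum came from Mir128-1, Mir128-2, Mir137 and Mir132. Mir124a-2 had 7 reads in animal 1 and 1 in animal 2, and Mir124a-3 had 4 and 2. In the comparison of the animals below, 8 of these markers were tested: 1 was higher in animal 1, 4 higher in animal 2 and 3 not called. Markers of other cell types were also present and some were uneven, with the endothelial markers at 28913 CPM in animal 1 and 8265 CPM in animal 2 (all from Mir126a, with Mir126b at 0 in both). Their part in the results was not tested.

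All 4 genes were found in both animals, and the order by counted reads was the same: Mir671, Mir7b, Mir7-2, Mir7-1. Together they held 8254 reads in animal 1 and 5449 in animal 2, or 2169 CPM (95% interval 2122 to 2216) in animal 1 and 2093 CPM (2038 to 2150) in animal 2. These exact Clopper-Pearson intervals cover counting error only. The mean of the sum was 2131 ± 53.2 CPM (SD, n = 2), and the share of counted reads was 0.217% in animal 1 and 0.209% in animal 2. In both animals the members sat in the upper part of the ranked list of genes with a read. Among the 307 genes that reached 10 CPM in both, the median of the mean level was 329 CPM. Mir671 and Mir7b lay above that median, and Mir7-2 and Mir7-1 below it.

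**Figure D1:**
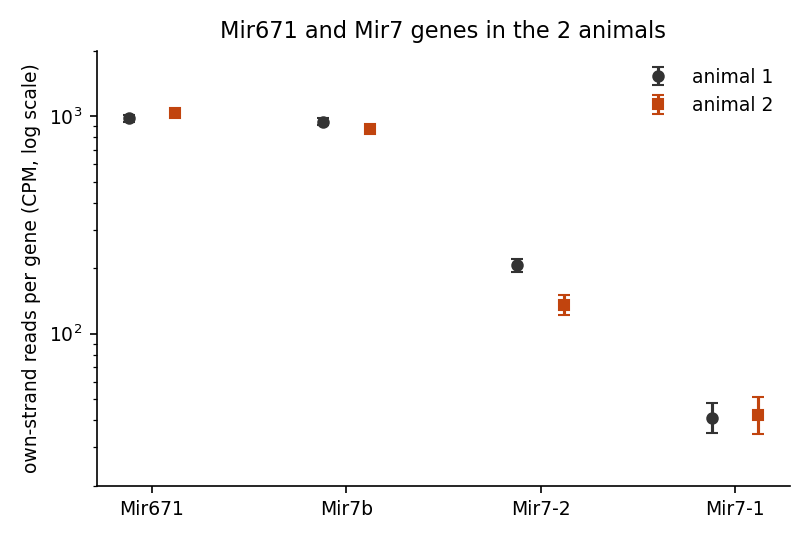
Own-strand reads of the 4 genes in CPM on a log scale. Points are single libraries, animal 1 left of animal 2 for each gene, and bars are exact 95% counting intervals. Mir671 and Mir7b stand close together near the top, Mir7-2 lies apart (206 CPM in animal 1 and 135 CPM in animal 2), and the intervals of Mir7-1 overlap.

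Mir7b, the only source of miR-7b, had the most reads of the miR-7 genes. It had 3598 reads in animal 1 and 2281 in animal 2, which is 945 CPM (915 to 977) in animal 1 and 876 CPM (841 to 913) in animal 2. These intervals do not overlap, and the animal 1 library was the higher by CPM. Mir7b averaged 911 ± 48.8 CPM and ranked 114th of all genes in animal 1 and 103rd in animal 2.

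Mir7-2, one of the pair of genes for miR-7a, came next. It had 785 reads in animal 1 and 352 in animal 2, or 206 CPM (192 to 221) in animal 1 and 135 CPM (121 to 150) in animal 2. Its mean of 171 ± 50.2 CPM had the widest relative spread of the 4 genes, a coefficient of variation of 29.4% against 2.16 to 5.36% for the others. An SD over n = 2 rests on a single difference. The counts of Mir7-2 and Mir7-1 leave out reads of mature miR-7a that match both genes.

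Mir7-1, the other gene for miR-7a, had the fewest counted reads of the set. It had 156 reads in animal 1 and 110 in animal 2, which is 41.0 CPM (34.8 to 47.9) in animal 1 and 42.3 CPM (34.7 to 50.9) in animal 2, overlapping intervals. These values are far above the 3 counts that a count of 0 would allow, 0.788 CPM in animal 1 and 1.15 CPM in animal 2. It ranked 252nd in animal 1 and 239th in animal 2.

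Mir671, whose product directs the slicing of Cdr1as, was the highest gene of the set. It had 3715 reads in animal 1 and 2706 in animal 2, or 976 CPM (945 to 1008) in animal 1 and 1040 CPM (1001 to 1080) in animal 2. Mir671 averaged 1008 ± 44.9 CPM, ranking 110th in animal 1 and 92nd in animal 2. Its level and that of Mir7b overlapped in their intervals in animal 1 and did not in animal 2.

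**Figure D2:**
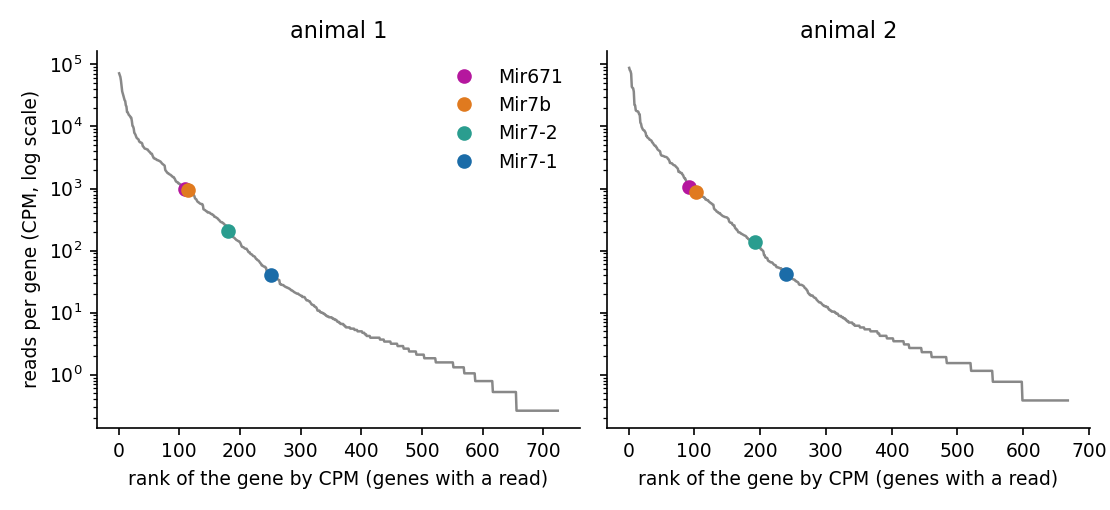
Level in CPM (log scale) of every gene with a read against its rank in that library, animal 1 left and animal 2 right. Coloured points are the 4 genes, which keep their order in both panels: Mir671, Mir7b, Mir7-2 and Mir7-1 rank 110, 114, 180 and 252 in animal 1, and 92, 103, 192 and 239 in animal 2.

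Because the hairpins differ in length, levels between genes were also set per 100 bases of hairpin. On that scale Mir671 had 996 CPM per 100 bases in animal 1 and 1061 in animal 2, and Mir7b had 852 in animal 1 and 789 in animal 2. Mir7-2 had 213 in animal 1 and 139 in animal 2, and Mir7-1 had 38.0 in animal 1 and 39.1 in animal 2. The order of the 4 genes was the same on both scales in both animals, but it could hardly have changed. Mir671 is both higher and shorter than Mir7b. For the others, lengths of 97 to 111 bases differ far less than the levels, so this scale is no test of the order.

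Mir7b supplied most of the reads counted to miR-7 genes. Its share of them was 79.3% (78.1 to 80.4) in animal 1 and 83.2% (81.7 to 84.5) in animal 2. Mir7-2 supplied 17.3% (16.2 to 18.4) in animal 1 and 12.8% (11.6 to 14.1) in animal 2, and Mir7-1 3.44% (2.93 to 4.01) in animal 1 and 4.01% (3.31 to 4.81) in animal 2. The intervals of animals 1 and 2 did not overlap for Mir7b or for Mir7-2, and overlapped for Mir7-1. The counted reads do not give the ratio of miR-7a to miR-7b, since a read of mature miR-7a matches both of its genes and such reads have a row of their own.

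Ratios within a library do not depend on how the libraries are scaled. Mir671 to Mir7b was 1.03 (0.986 to 1.08) in animal 1 and 1.19 (1.12 to 1.25) in animal 2, so that Mir671 stood above Mir7b beyond counting error in the second animal alone. Mir7b to Mir7-2 was 4.58 (4.24 to 4.96) in animal 1 and 6.48 (5.79 to 7.27) in animal 2. Mir7-2 to Mir7-1 was 5.03 (4.23 to 6.01) in animal 1 and 3.20 (2.58 to 4.00) in animal 2. In none of these 3 ratios did the intervals of the animals overlap. The summed reads of the Mir7 genes stood to those of Mir671 as 1.22 in animal 1 and 1.01 in animal 2.

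The animals were then compared gene by gene with an exact binomial test on the counts, given library sizes scaled by TMM, over the 531 genes with at least 10 counts. Log2 ratios are animal 1 over animal 2. The test calls differences between these libraries beyond counting noise at an adjusted p under 0.05, and with 1 library per animal it says nothing of mice in general. It called 51.6% of all tested genes, 26.9% higher in animal 1 and 24.7% higher in animal 2. All 4 members were tested and 3 were called, 1 higher in animal 1 and 2 higher in animal 2. With calls this common, 3 of 4 is no result about these genes.

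Mir7-2 was higher in animal 1, with a log2 ratio of 0.40 (95% interval 0.22 to 0.59; adjusted p = 2.85e-05, exact binomial test). With plain library totals in place of TMM its ratio was 0.61. Both ratios cover only the reads placed on Mir7-2, without those of mature miR-7a that match Mir7-1 as well. Whether the left-out reads differ between the animals in the same way was not tested. Mir671 was lower in animal 1, at -0.29 (-0.37 to -0.22; adjusted p = 4.73e-15, exact binomial test), and with plain totals at -0.09 (adjusted p = 0.0252, exact binomial test). Mir7-1 had a log2 ratio of -0.25 (-0.61 to 0.12; adjusted p = 0.283, exact binomial test), and its interval holds both no difference and differences as large as that of Mir671.

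For Mir7b the direction, and not only the size, depended on the scaling. After TMM it was lower in animal 1, at -0.09 (-0.17 to -0.02; adjusted p = 0.0322, exact binomial test), but with the plain library totals, as in the CPM values above, the ratio was 0.11 and higher in animal 1 (adjusted p = 0.0102, exact binomial test). The plain totals also moved the median log2 ratio of all tested genes to 0.25, against 0.04 with TMM, and the share of calls higher in animal 1 to 67.5%, against 52.2%. TMM, plain totals and DESeq2 size factors each shift all log2 ratios by the same amount. Distances from the median are therefore equal under them by arithmetic, and do not settle the direction of Mir7b. Relative to that median, Mir7b stood at -0.14, Mir671 at -0.34, Mir7-1 at -0.29 and Mir7-2 at 0.36. With no filter, which changes the genes tested, Mir7b stood at -0.17, Mir671 at -0.37, Mir7-1 at -0.32 and Mir7-2 at 0.33.

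The differences of the members were small or middling among those of other genes. The median size of the log2 ratio over all tested genes was 0.51, and 23.7% of them differed by at least 2-fold. The size of the difference was larger than that of 10.7% of tested genes for Mir7b, 26.7% for Mir7-1, 31.1% for Mir671 and 42.0% for Mir7-2. Since counting error shrinks with level, each gene was also set beside those within 2-fold of its level. Among 55 such genes the size of the difference of Mir7b exceeded that of 12.7%, and the median size was 0.38. For Mir671 it exceeded 39.7% of 58 genes (median 0.45), for Mir7-2 44.6% of 65 (0.47) and for Mir7-1 29.4% of 68 (0.55).

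**Figure D3:**
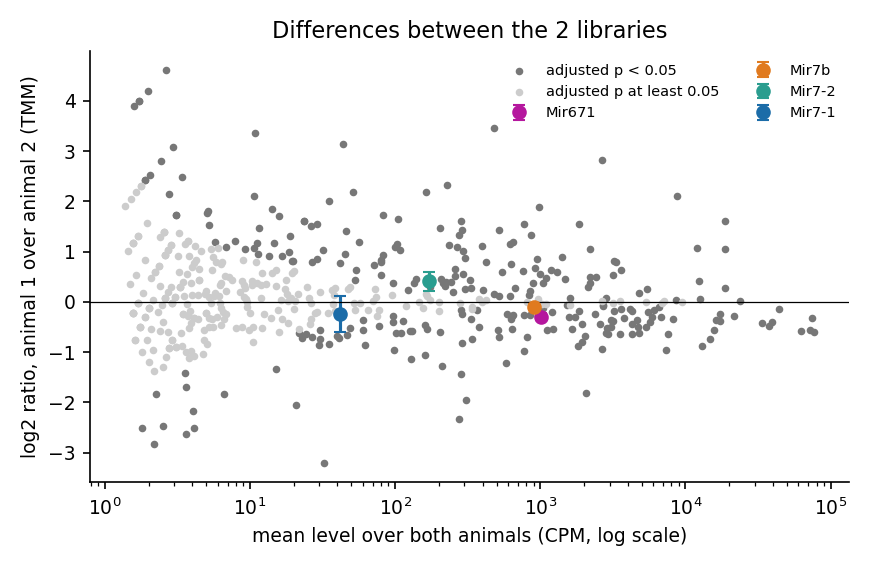
Log2 ratio of animal 1 over animal 2 after TMM against mean level in CPM (log scale) for the 531 tested genes. Dark points were called at an adjusted p under 0.05 and pale points were not; coloured points are the 4 genes with exact 95% intervals. Mir7b at -0.09 and Mir671 at -0.29 lie near 0 in a cloud that spreads well beyond them at the same level.

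The genes nearest to each member in mean level show the same range. The genes next above Mir7b were Mir15b (949.5 ± 467 CPM) and Mir92-1 (918 ± 382 CPM), and next below came Mir673 (887 ± 251 CPM) and Mir129-2 (867 ± 599 CPM). All 4 were called higher in animal 1, with log2 ratios of 0.38 to 1.34. Around Mir671, Mir185 (1038 ± 36.1 CPM) and Mir300 (1020 ± 77.1 CPM) lay above, and Mir1839 (993 ± 363 CPM) and Mir15a (985.5 ± 861 CPM) below. Mir15a had 1595 CPM in animal 1 and 376 CPM in animal 2, while Mir185 had 1064 CPM in animal 1 and 1013 CPM in animal 2.

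Mir7-2 was flanked by Mir1843a (174.9 ± 21.3 CPM) and Mir212 (173 ± 42.5 CPM) above, and by Mir669o (166.5 ± 27.4 CPM) and Mir873a (166 ± 25.2 CPM) below. Of these only Mir212, a microRNA induced by neuronal activity, was called in the same direction, with 203 CPM in animal 1 and 142.5 CPM in animal 2. Mir7-1 was flanked by Mir122 (42.2 ± 0.486 CPM) and Snord43 (41.7 ± 19.4 CPM) above, and by Mir32 (41.1 ± 0.543 CPM) and Mir217 (40.8 ± 10.2 CPM) below. The neighbours are alike in level alone.

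Mir7-1 and Mir7-2 belong to the genes whose mature sequence is shared with another listed gene, and such genes were counted apart. There were 149 of them, 92 by sequence and 57 by symbol where RefSeq gave no sequence. Of these, 40 (26.8%) reached 10 CPM in both libraries, with a median of 129 CPM, and the whole class held 4.25% of counted reads in animal 1 and 4.36% in animal 2. Of the other 2052 genes, 267 (13.0%) reached that level, with a median of 368 CPM. RefSeq gave a mature sequence for 1018 listed genes, so sharing among the rest was judged by symbol alone. Whether the contrast comes from this difference in annotation was not tested. Within the class Mir7-2 ranked 19th and Mir7-1 27th by mean CPM. Reads mapped to several positions numbered 1.27 per counted read in animal 1 and 1.33 in animal 2, and the files do not say which genes they match, so the levels of Mir7-1 and Mir7-2 are uncertain.

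The longest run that a hairpin shares with any other RefSeq hairpin was 24 bases for Mir7-1 and Mir7-2, 14 for Mir7b and 12 for Mir671. The median was 12 over 968 hairpins in RefSeq and 13 over the 265 of them that reached 10 CPM. Among RefSeq hairpins, a whole mature strand of Mir7b or Mir671 thus matches 1 gene exactly. RefSeq hairpins were at hand for 968 of the 2202 listed genes, and the other listed genes and the genome were not searched. Since miR-7a-5p and miR-7b-5p differ by A10U alone over 23 positions, they also match each other's genes with 1 mismatch, and whether the counting allowed mismatches is not given in the sources.

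**Figure D4:**
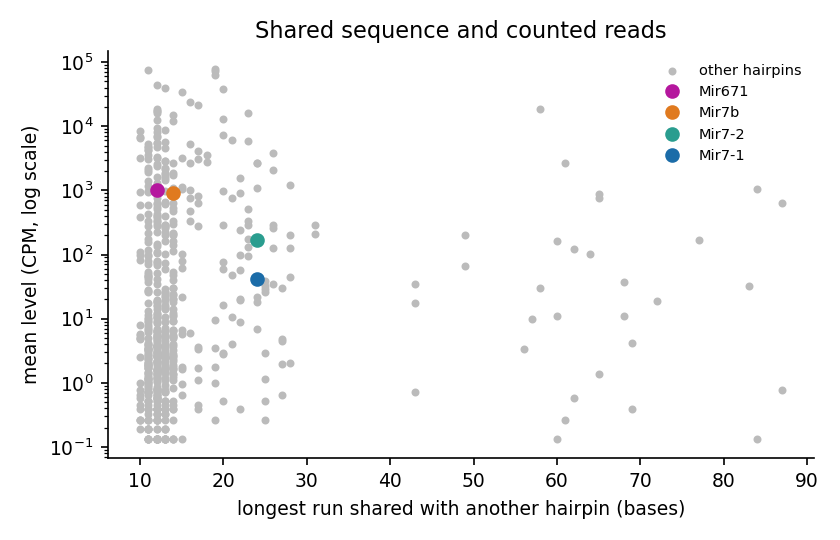
Mean level in CPM (log scale) of hairpin genes with a read against the longest run of bases shared with another RefSeq hairpin. Mir671 and Mir7b sit at 12 and 14 bases and at 1008 and 911 CPM, Mir7-2 and Mir7-1 both at 24 bases and at 171 and 41.6 CPM.

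The hairpins themselves also differed in build. Mir671 was the richest in G and C (61.2%, against 51.7% for the median hairpin) and had the most stable predicted fold, -55.0 kcal/mol over 98 bases. Its energy per base was lower than that of 93.1% of hairpins. Mir7b, with nearly the same level, had the weakest fold of the 4, -35.0 kcal/mol over 111 bases, lower per base than 15.9% of hairpins. Mir7-1 and Mir7-2 lay between them, at -46.8 kcal/mol over 108 bases and -40.5 kcal/mol over 97.

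In the reference transcripts the partner Cdr1as stood far apart in matches to the miR-7 seed. The motif GTCTTCC, the complement of the seed, was searched on both strands of 141767 M21 transcripts. Its letters cannot overlap a second copy or the miR-671-5p motif GGCTTCC. It occurred on the transcript's own strand in 13.8% of them and on the reverse strand in 19.0%. C230004F18Rik, which RefSeq names Cdr1os with the synonym Cdr1as, has a transcript of 3354 bases with 123 matches. Among transcripts of 3000 to under 4000 bases 27.8% had a match, with at most 5 in any other gene, and over all lengths no other gene exceeded 11 (Ttn, D10Wsu102e and Hrnr). Cdr1, annotated on the opposite strand, had 0 matches on its own strand and 79 on the reverse.

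All 123 matches fell in the exon of 2927 bases at chrX:61183248-61186174 (plus strand), 1 for every 23.8 bases. The distance between neighbouring matches was 18 bases in 86 cases, also the median, and 109 bases at most. Only 34 of the matches were followed by an A. GGCTTCC, the complement of the miR-671-5p seed, occurred in the same exon 1 time, while 16.8% of all transcripts had it, and 32.2% of those of 3000 to under 4000 bases.

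Sites with the most pairing in that exon show the contrast between the partners: a miR-671 site paired along almost its whole length and miR-7 sites paired mainly at the seed. The stretches are written 5′ to 3′ on the plus strand, with bases that pair with the microRNA in capitals (Watson-Crick pairs, no gaps).
miR-671-5p, best: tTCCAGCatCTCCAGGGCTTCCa
miR-671-5p, second: tTCCAaCatCTCCAGGtCTTCCa
miR-7a-5p, best: tCcAgAAAAatcCaAGTCTTCCA
miR-7b-5p, best: ttCcAgAAAAatcCAAGTCTTCCA
The best miR-671-5p site (chrX:61186029-61186051) paired 19 of 23 bases and held the single match to its seed. The second (chrX:61183276-61183298), at the other end of the exon, paired 17 of 23 and held a match to the miR-7 seed in its place. For miR-7a-5p the best site (chrX:61183571-61183593) paired 16 of 23 bases. The same place (chrX:61183570-61183593) was best for miR-7b-5p, which paired 17 of 24, the base of the substitution A10U included.

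**Figure D5:**
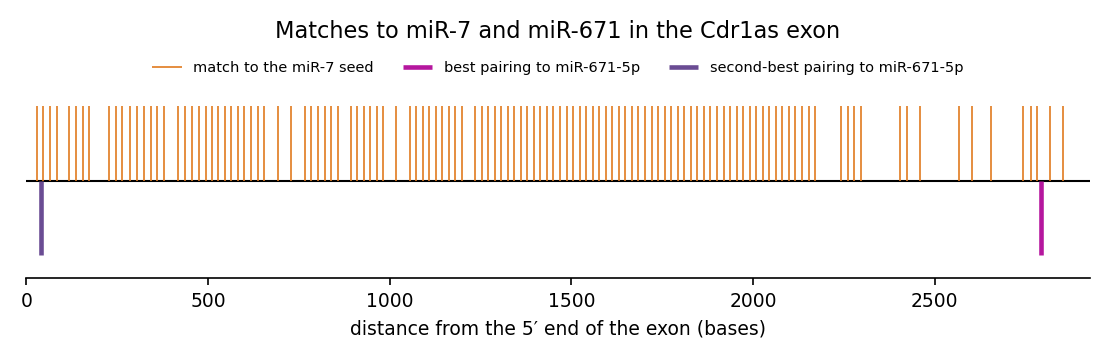
Positions of motif matches along the exon of Cdr1as in the reference, in bases from its 5′ end. Upper ticks are the 123 matches to the complement of the miR-7 seed, sparser toward the 3′ end. Lower bars are the best (drawn at 2793) and second (drawn at 40) pairings to miR-671-5p, near opposite ends.

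Cyrano, annotated as 1700020I14Rik and named Oip5os1 in RefSeq, carried only 2 matches to the miR-7 seed in a transcript of 8300 bases. At 1 of them the pairing continues beyond the seed, with capitals again marking paired bases on the plus strand.
miR-7a-5p: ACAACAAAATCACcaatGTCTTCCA
miR-7b-5p: AACAACAAAATCACcaatGTCTTCCA
At chr2:119602137-119602161, 21 of the 23 bases of miR-7a-5p paired, as a block of 13 and a block of 8, with 2 microRNA bases and 4 site bases unpaired between them. For miR-7b-5p (chr2:119602136-119602161) it was 22 of 24. The substitution A10U lies in the unpaired part, so both forms of miR-7 pair with Cyrano in the same way. Whether alleles of CAST/EiJ differ at any of these sites was not analysed here.

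Cyrano is one of several RNAs known to direct a microRNA to degradation. MicroRNAs with such a partner were described together with Mir322 and Mir503, for which no partner was named. The list has 12 genes: the 3 Mir7 genes, Mir29b-1, Mir29b-2, Mir30b, Mir30c-1, Mir30c-2, Mir221, Mir222, and Mir322 and Mir503, whose decay depends on the ubiquitin ligase adaptor ZSWIM8. All 12 had reads in both animals and were tested. By the exact binomial test 2 were higher in animal 1, 7 higher in animal 2 and 3 were not called, against 26.9% and 24.7% called in these directions over all genes. The median log2 ratio of the list was -0.36, beside 0.04 for all tested genes, and with plain library totals it was -0.15 beside 0.25. With those totals 3 of the list were called higher in animal 1 and 6 higher in animal 2. Mir29b-1, Mir29b-2, Mir30c-1 and Mir30c-2, like Mir7-1 and Mir7-2, share a mature sequence with another listed gene. The 12 genes are therefore not separate items, and reads that match several genes are left out of their counts.

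The Mir7 genes took both directions, Mir7-2 with Mir29b-2 higher in animal 1 and Mir7b (after TMM) with the other 6 higher in animal 2. Mir221 had 1415 CPM in animal 1 and 2249 CPM in animal 2 (log2 ratio after TMM -0.87, the scale of all ratios given here). Mir322 had 1540 CPM in animal 1 and 2331 CPM in animal 2 (-0.80), and Mir222 had 429 CPM in animal 1 and 605 CPM in animal 2 (-0.70). Mir30c-2, Mir30c-1 and Mir30b had log2 ratios of -0.60, -0.58 and -0.47. Mir29b-2 had 39.1 CPM in animal 1 and 18.8 CPM in animal 2 (0.84), while Mir503 at 0.09 and Mir29b-1 at 0.08 were not called.

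The tissue was whole cortex, so a lower level cannot be told apart from fewer cells of the type that makes a microRNA. Beside the differences of Mir7-2 and Mir671 stand those of markers of other cells, some uneven and some not. Oligodendrocyte markers summed to 1187 CPM in animal 1 and 1640 CPM in animal 2 (3 of 3 genes with reads in both). Within them Mir219a-2 and Mir338 were called higher in animal 2, and Mir219a-1, with 77 reads in animal 1 and 4 in animal 2, higher in animal 1. Smooth muscle and pericyte markers had 3145.5 CPM in animal 1 and 4524 CPM in animal 2 (2 of 2). Microglial and blood markers had 837 CPM in animal 1 and 1151 CPM in animal 2 (4 of 4), and erythroid markers 49.1 CPM in animal 1 and 17.7 CPM in animal 2 (2 of 2). Markers of ciliated cells had 241 CPM in animal 1 and 744.5 CPM in animal 2 (4 of 5, Mir449b at 0 in both), and all 3 that were tested were called higher in animal 2. Mir204 of the choroid plexus had 865 CPM in animal 1 and 751 CPM in animal 2, and after TMM it was not called. Markers of neuroendocrine and epithelial cells summed to 181 CPM in animal 1 and 182 CPM in animal 2 (6 of 6), with members called in opposite directions. Mir200b had 36.8 CPM in animal 1 and 10.4 CPM in animal 2, and Mir375 had 94.1 CPM in animal 1 and 125.6 CPM in animal 2. Their part in the differences was not tested.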

How the data were processed

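The deposited values are whole-number read counts per microRNA gene, 1 table for each of the 2 libraries. Per the notes deposited beside the tables, the build was mm10 and the annotation GENCODE M21; an aligner or counter is not given in the sources used. Reads of both arms of a hairpin are summed. The own-strand column was used; the 4 members had 0 reads on the opposite strand. Rows that name no gene (66.5% of reads in animal 1, 69.6% in animal 2) entered neither library sizes nor tests. The effect of CAST/EiJ alleles on mapping was not tested.

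CPM values and shares were computed over counted reads, with exact Clopper-Pearson 95% intervals. No molecular identifiers are shown, so intervals and the floor of 3 counts cover counting error only. Library sizes were scaled with TMM factors of 1.07 in animal 1 and 0.932 in animal 2 (edgeR 4.0.16, R 4.3.3). With 1 group, edgeR's own tests had no contrast, so genes with at least 10 summed counts were compared by a two-sided exact conditional binomial test with Benjamini-Hochberg adjustment over all of them, threshold 0.05. Log2 ratios had 0.5 added to each count. The binomial test was run on simulated counts with counting noise only and plain library totals. That simulation tested neither the TMM scaling nor any spread between animals. Alternatives were plain library totals, DESeq2 1.42.0 size factors, the unstranded column, no filter, a threshold of 0.01, other denominators and leaving out a library.

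Sequences came from RefSeq (GRCm38.p6) and the GENCODE M21 transcripts, folds from RNAfold 2.7.2. Scripts used Python 3.11.15, scipy 1.17.1, numpy 2.4.6, pandas 2.3.3, Biopython 1.88 and matplotlib 3.10.9. Genes named are the members, the 2 listed genes next above and below each by mean CPM, and those sharing a seed or lying within 10 kb. Also named are the microRNAs with a degradation-directing RNA, Mir322 and Mir503 described with them, and the markers of cell types. Members and lists were chosen with earlier results of these data known.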

Additional observations from a re-analysis of the deposited data

Results flagged for a closer look

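Reads mapped to several positions stand outside every comparison above and were the largest single class of reads, 42.7% of all reads in animal 1 and 40.4% in animal 2. They were looked at again because they carry signal in a row that the comparisons do not use. The row gives no gene, so how many of these reads came from Mir7-1 and Mir7-2 was not analysed here.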

How the results depend on the processing

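Mir7b reversed with plain library totals, to a log2 ratio of 0.11 (adjusted p = 0.0102, exact binomial test). It kept its sign without passing the threshold in the unstranded column (-0.08, adjusted p = 0.0789, exact binomial test) and with no filter (-0.04, adjusted p = 0.452, exact binomial test), and passed it with DESeq2 size factors (-0.14). Under these 4 alternatives Mir671 ranged from -0.34 to -0.09 and Mir7-2 from 0.35 to 0.61, called in each, and Mir7-1 from -0.30 to -0.05, called in none. The number of genes called was 237 at a threshold of 0.01 and 249 to 280 under the others. The summed level of the 4 genes was 682 CPM over all reads and 2295 CPM in the unstranded column, where fewer reads are counted; leaving out each animal gave 2093 to 2169 CPM, and leaves no ratio between libraries. No paired analysis was possible because there is 1 group. Depth limits Mir7-1 most, with 156 reads in animal 1 and 110 in animal 2. Of the other values for single genes, 26 kept their call or level and 7 levels moved with the denominator or column. A level was taken as kept when it shifted by less than the SD. Leaving out either of 2 animals always meets that rule, so those values among the 26 could not have moved.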
